A study of Mus musculus with 6 samples.

Results

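Solute carriers are the membrane proteins that move sugars, amino acids, ions, metals, vitamins and nucleotides across cell membranes, and 76 genes named for them were examined in mouse mammary tumour cell lines with and without Akt1. The genes are those whose deposited symbol starts with Slc and a digit or with Slco, on 88 of the 45037 probe sets that are not array controls. Symbols were filled in by the authors only where their own p-value between the genotypes was under 0.05, on 5604 of those probe sets. Membership therefore rests on the same contrast that is described here, and every difference below is a description of chosen probe sets, without a test. Of 389 protein-coding genes with such names in the RefSeq annotation of the GRCm38.p6 assembly, the remaining ones carry no symbol of this form here, and those deposited under older names are given at the end.

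The cells were 3 Akt1 knockout lines, labelled akt(-/-) 72, 75 and 116. They were set against 3 Akt1 wild-type lines, labelled akt(+/+) 31, 101 and 102, with 1 array for each line. All 6 lines carried MMTV-ErbB2, an oncogenic receptor kinase driven in mammary epithelial cells by a mouse tumour virus promoter, and were cultured from tumours that arose in the mice and kept for 25 passages in a medium with serum, insulin and EGF. The design asks how expression in ErbB2 tumour cells differs without Akt1. The kind of knockout allele and the ages of the animals are not given in the labels, nor is it said whether each line came from its own animal, so the spread shown is that between lines and may be partly technical.

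Carriers of this kind do not burn ATP themselves. Many couple the uphill movement of a nutrient to sodium or proton gradients, others exchange one solute for another, and the SLC25 and SLC35 families sit in mitochondria and in the Golgi or endoplasmic reticulum. Akt, a serine/threonine kinase below phosphoinositide 3-kinase, is known for raising nutrient uptake, in part by moving glucose and amino acid transporters to the cell surface, which an expression array does not see. In mammary epithelium, carriers also supply the milk with zinc, phosphate, amino acids and lactose precursors.

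The promoters of these genes were compared with those of other genes in RefSeq, over the 250 bases before each transcription start on either strand. A promoter was listed for 62 of the 76 genes. The E-box CACGTG, a palindrome bound by MYC, USF and TFEB proteins, occurred before at least 1 listed start of 11 of these 62 genes (17.7%), against 6.86% of all 27025 genes. Counted by window, it was in 11 of 92 windows of these genes (11.96%) and in 6.02% of all 32851 windows. The median GC content was 60.0% for the carrier promoters and 52.0% for all genes; its part in that difference was not tested. Of the 11 genes, 7 were higher and 4 lower in the knockout lines, so the same letters stood before genes of both directions. The promoters of Slc29a1 at one of its listed starts (chr17:45595247-45595496, minus strand), lower in the knockout lines, and of Slc5a1 (chr5:33103969-33104218, plus strand) and Slc27a1 (chr8:71570344-71570593, plus strand), both higher, are shown 5′ to 3′ in GRCm38.p6 with the E-box in capitals.
Slc29a1: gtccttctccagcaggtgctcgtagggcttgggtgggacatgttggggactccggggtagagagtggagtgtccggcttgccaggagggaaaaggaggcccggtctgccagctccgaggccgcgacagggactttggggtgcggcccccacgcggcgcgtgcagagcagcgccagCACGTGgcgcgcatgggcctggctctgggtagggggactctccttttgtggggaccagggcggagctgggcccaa
Slc5a1: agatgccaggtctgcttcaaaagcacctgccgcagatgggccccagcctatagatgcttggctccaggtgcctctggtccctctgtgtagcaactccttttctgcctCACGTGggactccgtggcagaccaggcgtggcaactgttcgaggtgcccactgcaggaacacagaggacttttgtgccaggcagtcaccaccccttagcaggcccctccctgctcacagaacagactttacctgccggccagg
Slc27a1: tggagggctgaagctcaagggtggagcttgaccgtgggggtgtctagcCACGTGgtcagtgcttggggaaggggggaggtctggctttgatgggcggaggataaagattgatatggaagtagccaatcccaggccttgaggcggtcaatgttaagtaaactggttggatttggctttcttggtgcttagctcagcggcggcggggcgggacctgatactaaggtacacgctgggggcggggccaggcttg

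The amino acid response element TTGCATCA, bound by ATF4, is the site through which starved or stressed cells raise transporter genes. It was found before 1 of the 62 genes, Slc7a11, and before 0.918% of all genes. The Slc7a11 promoter (chr3:50443614-50443863, minus strand) holds it 2 times in opposite orientation, starting 66 and 47 bases before the transcription start, and is shown with both copies in capitals.
Slc7a11: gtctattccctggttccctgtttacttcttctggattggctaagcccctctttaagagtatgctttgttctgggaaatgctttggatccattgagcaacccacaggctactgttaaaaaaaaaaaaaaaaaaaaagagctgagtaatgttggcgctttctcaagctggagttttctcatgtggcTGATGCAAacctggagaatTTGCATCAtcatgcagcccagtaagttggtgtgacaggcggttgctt
The FoxO element GTAAACA was searched because Akt keeps FoxO factors out of the nucleus. It was in 4 of 62 carrier genes (6.45%) and in 3.54% of all genes. The cyclic AMP response element TGACGTCA was found in 0 of 62 and in 1.77% of all genes, and the metal response element core, TGCACNC or TGCGCNC, in 24.2% and 23.8%. These matches describe letters in a window and no binding was measured.

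As a check of the labels, the brighter Akt1 probe set read 4.62, 4.57 and 4.38 log2 units in knockout lines 72, 75 and 116, against 9.71, 10.09 and 10.03 in wild-type lines 31, 101 and 102. The arrays were on one scale, with medians of 5.41 to 5.50 log2 units. The luminal epithelial markers were listed under 14 names, with Tacstd1 and Epcam naming the same gene, and 5 genes carried a symbol. Cldn3, Tacstd1 (Epcam) and Krt8 were 1.67, 0.80 and 0.31 higher in the knockout lines and Cdh1 and Cldn7 differed by -0.70 and -0.48. Krt5 alone of 7 basal markers carried a symbol, 0.60 higher. Of 9 fibroblast, 5 adipocyte and 4 erythroid markers 0 did, of 8 leukocyte markers Cd8a (0.87), Coro1a (-0.69) and Laptm5 (-0.79), and of 6 endothelial markers Plvap (-1.40). The probe sets of Tacstd1 and Krt8 have the suffix x, which marks probes that also match other sequences. None of these marker differences passed (limma, adjusted p of at least 0.0866), and their part in the carrier differences was not tested. In such bulk RNA, fewer cells of one type and less RNA per cell cannot be told apart.

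Among the 76 genes, each taken at its symbol-bearing probe set of highest mean, 42 were higher and 34 lower in the knockout lines. The higher ones include Slc35a2, whose probe sets disagree, and Slc9a3r2, which is no carrier. The lower ones differed by more: their median difference was -0.76 log2 units, and that of the higher ones 0.42. The same pattern held over all 4462 symbol-bearing genes, with medians of -0.70 for 2269 lower genes and 0.42 for 2193 higher ones. At least 2-fold lower were 10 carrier genes (13.2%, against 12.03% of all symbol-bearing genes and 2.49% of all probe sets), and at least 2-fold higher were 2 (2.63%, against 3.12% and 1.11%). The median difference was 0.18 over the carriers, of which 55.3% were higher, and -0.16 over all symbol-bearing genes, of which 49.1% were higher. These shares describe 2 sets chosen on the same contrast and were not tested against each other.

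None of the 88 carrier probe sets passed an adjusted p under 0.05 in limma's fit over all 45037 probe sets, where 48 passed (0.107%). At an unadjusted p under 0.05 there were 71 of 88, against 15.4% of all probe sets, and the equal-variance two-sample test passed 0 after adjustment and 88 before it, which is how the symbols were given. Slc5a3 had the smallest adjusted p in limma (0.0538). Without knockout line 75, limma passed 2 of the probe sets, those of Slc7a5 and the dimmer one of Slc4a7. For all 88 the knockout and wild-type lines did not overlap, against 21.9% of all probe sets, and nothing is read from this since the rule chose them on that contrast. The probe sets nearest the limit were those of Slc7a6 (deposited p of 0.0497) and Slc25a22 (0.0488), and the first probe set beyond it, at 0.05002, has no symbol.

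Signal limits some of these genes. A probe set is called dim here where its mean over the 6 lines is under 3.80 log2 units, the lower quartile of all probe sets. Of the 76 genes 13 were dim (17.1%, against 14.6% of all symbol-bearing genes), 8 of them higher and 5 lower in the knockout lines.

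**Figure D1:**
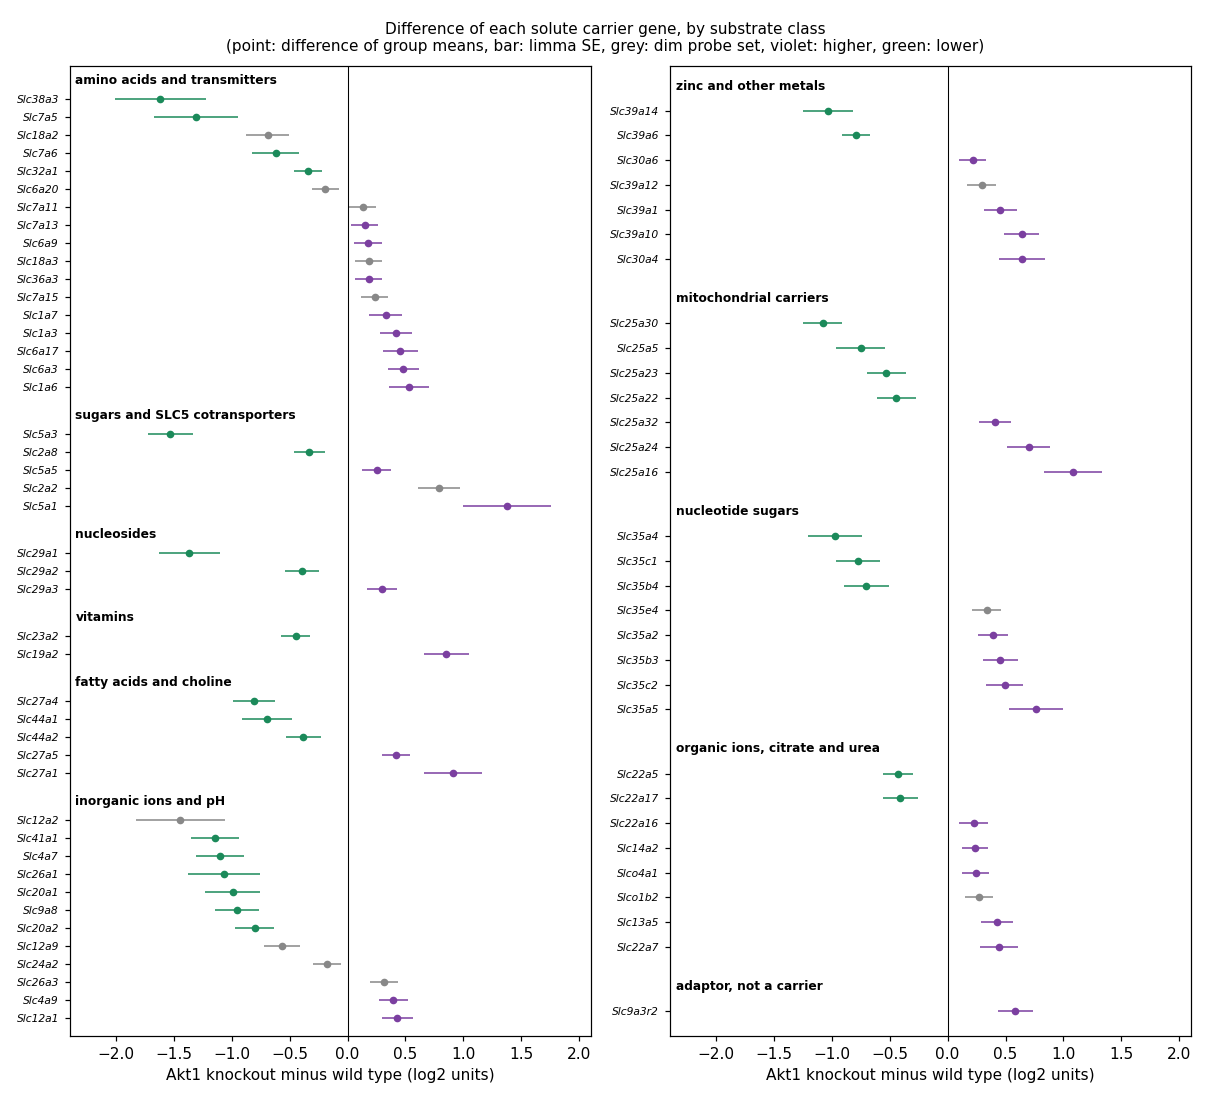
Difference between Akt1 knockout and wild-type lines (log2 units, x axis) for 75 of the 76 solute carrier genes (y axis), grouped by substrate class, with limma's standard error as bars and dim probe sets in grey. The differences run from -1.62 for Slc38a3 to 1.38 for Slc5a1, and the inorganic ion class has 9 genes on the lower side.

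Amino acid and transmitter carriers made up the most numerous class, 17 genes with 11 higher and 6 lower in the knockout lines, but its 2 differences of at least 2-fold were both lower. Slc38a3, a sodium-coupled importer of glutamine, histidine and asparagine, read 6.16, 6.72 and 6.27 log2 units in knockout lines 72, 75 and 116, against 8.69, 8.16 and 7.15 in wild-type lines 31, 101 and 102. Its difference was -1.62 ± 0.39 (SE, n = 3 each), or 3.07-fold lower, and the wild-type lines were spread over a wider range than the knockout lines. Slc7a5, or LAT1, is a light chain that exchanges glutamine for leucine and other large neutral amino acids. It read 9.23, 10.28 and 8.91 in knockout lines 72, 75 and 116, against 10.96, 10.92 and 10.45 in wild-type lines 31, 101 and 102. Knockout line 75 lay close to the lowest wild-type line. The difference was -1.31 ± 0.36 with all lines, -1.71 without line 75 and between -1.47 and -1.03 without any other line, the smallest being without knockout line 116.

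Slc7a6, like Slc7a5 a light chain that pairs with the heavy chain Slc3a2, exchanges cationic for neutral amino acids. It read 5.38, 5.35 and 5.83 in knockout lines 72, 75 and 116, against 5.84, 6.19 and 6.40 in wild-type lines 31, 101 and 102, so that knockout line 116 and wild-type line 31 nearly met. Slc3a2 has no symbol here and was not analysed.

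The higher members of the class differed little, by a median of 0.23 log2 units. Of 7 RefSeq genes of the SLC1 family, which holds the glutamate and aspartate carriers, 3 carried a symbol. These, Slc1a3, Slc1a6 and Slc1a7, were 0.42, 0.53 and 0.33 higher. Slc6a3, the dopamine transporter, was 0.48 higher, Slc6a17, a vesicular carrier of neutral amino acids, 0.46 higher and Slc6a9, a glycine transporter, 0.18 higher. Slc36a3, Slc7a13 and Slc7a15 differed by 0.18, 0.15 and 0.23. The cystine importer Slc7a11, which carries the promoter elements shown above, was 0.13 higher on a dim probe set with means of 2.73 ± 0.05 in the knockout and 2.60 ± 0.05 in the wild-type lines (SD, n = 3 each). Of the SLC18 and SLC32 vesicular carriers, Slc18a3 for acetylcholine was 0.18 higher, whereas Slc18a2 for monoamines and Slc32a1 for GABA differed by -0.69 and -0.34. Slc6a20, of the SLC6 family, differed by -0.19. Slc18a2, Slc18a3, Slc6a20 and Slc7a15 were dim as well. Slc1a6, Slc6a3 and Slc32a1 were not called dim, but their lower group lay under the limit of 3.80. Wild-type means were 3.71 for Slc1a6 and 3.73 for Slc6a3, against knockout means of 4.23 and 4.21. For Slc32a1 the knockout mean was 3.68 and the wild-type mean 4.02.

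The SLC5 family held the lead differences of the sugar class, in opposite directions. Slc5a3 imports myo-inositol, an osmolyte and the base of the phosphoinositides, with sodium. It read 4.55, 4.48 and 4.43 log2 units in knockout lines 72, 75 and 116, against 5.62, 6.17 and 6.28 in wild-type lines 31, 101 and 102. The 3 knockout lines lay within a narrow band well below every wild-type line, a difference of -1.53 ± 0.19 (SE, n = 3 each) or 2.89-fold.

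Slc5a1, the sodium-driven glucose and galactose importer SGLT1, had the largest difference upward on the probe sets that represent the genes. It read 8.59, 8.19 and 8.25 in knockout lines 72, 75 and 116, against 6.38, 7.85 and 6.66 in wild-type lines 31, 101 and 102, a difference of 1.38 ± 0.38 or 2.60-fold. Wild-type line 101 lay near the knockout lines, and without it the difference was 1.82. Without any other line it was between 1.09 and 1.46, the smallest being without wild-type line 31. The facilitative carriers differed in opposite directions. Slc2a2, the low-affinity glucose transporter of liver and islets, read 4.36, 3.91 and 3.75 in knockout lines 72, 75 and 116, against 3.24, 3.26 and 3.15 in wild-type lines 31, 101 and 102, and was dim. Slc2a8, a transporter of internal membranes, read 8.31, 8.24 and 8.18 in those knockout lines, against 8.71, 8.62 and 8.40 in those wild-type lines. Slc5a5, the iodide importer of thyroid and lactating gland, was 0.25 higher. The main glucose importer of proliferating cells, Slc2a1, has no symbol here and was not analysed.

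The nucleoside carrier Slc29a1 (ENT1), which equilibrates nucleosides across the plasma membrane and takes up nucleoside drugs, was lower in the knockout lines. It read 10.09, 9.95 and 9.60 log2 units in knockout lines 72, 75 and 116, against 11.71, 11.28 and 10.76 in wild-type lines 31, 101 and 102, a difference of -1.37 ± 0.26 (SE, n = 3 each) or 2.58-fold. Its relative Slc29a2 (ENT2) differed by -0.39, and Slc29a3, found in lysosomes, by 0.30. Of 2 vitamin carriers, Slc19a2, which imports thiamine, was higher. Its brighter probe set read 8.77, 9.24 and 8.83 in knockout lines 72, 75 and 116, against 8.37, 7.92 and 7.998 in wild-type lines 31, 101 and 102. Its dimmer probe set differed by more, 1.39 ± 0.22 against 0.85 ± 0.19 for the brighter one. Slc23a2, which imports ascorbate although the deposited name says nucleobases, differed by -0.45.

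The fatty acid carriers with a symbol, 3 of 6 SLC27 genes in RefSeq, were split. The choline carriers with a symbol, 2 of 5 SLC44 genes, were both lower. Slc27a1, a fatty acid transport protein with acyl-CoA synthetase activity, read 5.92, 5.95 and 6.30 log2 units in knockout lines 72, 75 and 116, against 5.61, 5.10 and 4.72 in wild-type lines 31, 101 and 102. Slc27a4, a relative with the same activity, read 8.90, 8.85 and 8.60 in those knockout lines, against 9.38, 9.89 and 9.49 in those wild-type lines. Their differences were 0.91 ± 0.25 and -0.81 ± 0.18 (SE, n = 3 each). Slc27a5, the bile acid CoA ligase of liver, was 0.42 higher. The choline carriers Slc44a1 and Slc44a2 differed by -0.70 and -0.38.

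Carriers of inorganic ions were mostly lower, 9 of 13 genes with a class median of -0.80 log2 units, and 4 of the 10 genes at least 2-fold lower were among them. Slc4a7 brings in bicarbonate with sodium and so raises the pH of the cell. Its brighter probe set read 5.73, 6.26 and 5.81 in knockout lines 72, 75 and 116, against 7.30, 6.76 and 7.04 in wild-type lines 31, 101 and 102, a difference of -1.10 ± 0.21 (SE, n = 3 each). The dimmer one differed by -1.35 ± 0.28. Slc9a8, a sodium/proton exchanger of Golgi and endosomes, differed by -0.96.

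Slc41a1, a magnesium carrier, read 4.75, 5.06 and 4.85 in knockout lines 72, 75 and 116, against 6.19, 6.28 and 5.63 in wild-type lines 31, 101 and 102, 2.21-fold lower. Both phosphate importers of the SLC20 family were lower. Slc20a2 read 9.17, 9.12 and 9.23 on its brighter probe set in those knockout lines, against 10.14, 10.13 and 9.65 in those wild-type lines, and differed by -0.80 on this and -0.65 on the other probe set. Slc20a1 differed by -0.99, and Slc26a1, a sulphate carrier, by -1.07 and -0.63 on its probe sets.

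Chloride cotransporters help to set cell volume, and Slc12a2 (NKCC1) brings sodium, potassium and chloride in. It read 3.34, 2.60 and 3.003 in knockout lines 72, 75 and 116, against 3.80, 5.23 and 4.26 in wild-type lines 31, 101 and 102, a difference of -1.45 ± 0.38 on a dim probe set. Slc12a9 (-0.57), Slc24a2 (-0.18) and Slc26a3 (0.31) were dim, and Slc12a1 and Slc4a9 were 0.43 and 0.40 higher.

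Zinc carriers divided, 5 of 7 being higher. The SLC30 proteins carry zinc out of the cytosol, and Slc30a4, whose loss in mice leaves the milk short of zinc, was 0.64 ± 0.20 higher. Slc30a6 differed by less, reading 10.17, 10.27 and 10.27 in knockout lines 72, 75 and 116, against 9.98, 10.03 and 10.07 in wild-type lines 31, 101 and 102. The SLC39 proteins carry zinc into the cytosol: Slc39a10 and Slc39a1 were 0.64 and 0.46 higher, Slc39a12 was 0.29 higher and dim, and Slc39a14 and Slc39a6 were lower. Slc39a14, which also carries iron, differed by -1.03 ± 0.22 on its brighter and -0.72 ± 0.13 on its other probe set. Slc39a6, known as LIV-1 and induced by oestrogen in human breast cancer cells, averaged 6.05 ± 0.06 in the knockout and 6.84 ± 0.08 in the wild-type lines (SD, n = 3 each), and its other probe set, which was dim, differed by -0.40.

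**Figure D2:**
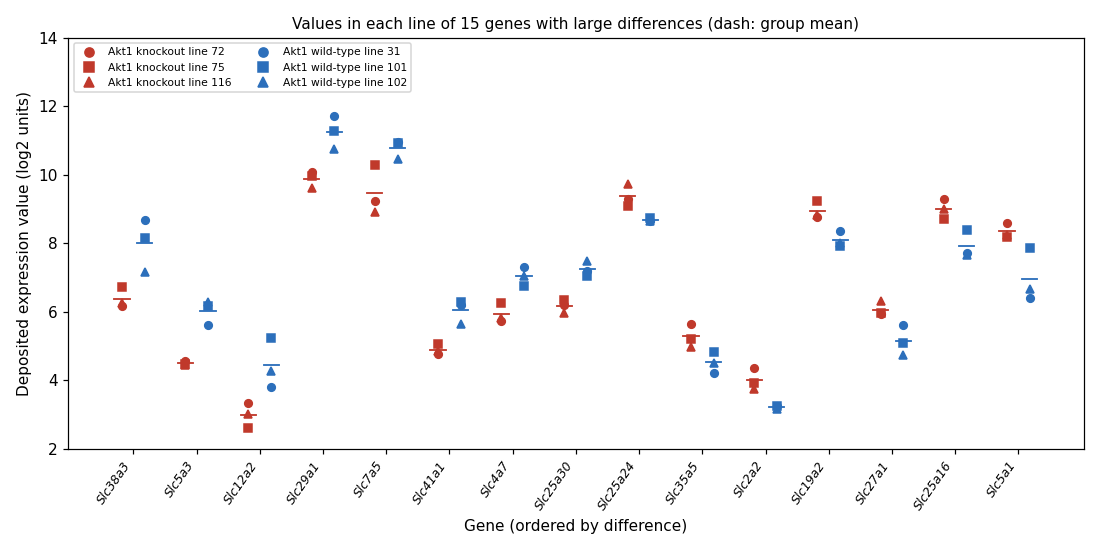
Deposited log2 values (y axis) of the 8 lower genes with the largest differences and of 7 higher ones (x axis), with each knockout line in red on the left and each wild-type line in blue on the right, and a dash at each group mean. The knockout lines of Slc5a3 lie between 4.43 and 4.55, whereas the knockout lines of Slc7a5 run from 8.91 to 10.28, the top one being line 75.

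Of 7 mitochondrial carriers 4 were lower and 3 higher. Slc25a5, the adenine nucleotide translocator of proliferating cells, read 11.87, 11.30 and 11.14 log2 units in knockout lines 72, 75 and 116, against 12.31, 12.06 and 12.20 in wild-type lines 31, 101 and 102. It is seen by 2 probe sets with the suffix x, which in this naming scheme marks probes that also match other sequences, so its values could include related genes. Their differences were -0.75 and -0.80. Slc25a30 read 6.20, 6.33 and 5.96 on its brighter probe set in knockout lines 72, 75 and 116, against 7.19, 7.05 and 7.47 in wild-type lines 31, 101 and 102, and both of its probe sets differed by -1.08.

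Higher in this class were Slc25a16, Slc25a24 and Slc25a32. Slc25a16, which is tied to mitochondrial coenzyme A, read 9.29, 8.71 and 8.996 in knockout lines 72, 75 and 116, against 7.72, 8.39 and 7.65 in wild-type lines 31, 101 and 102, 2.12-fold higher. Slc25a24, which exchanges ATP-magnesium for phosphate, read 9.29, 9.09 and 9.74 in those knockout lines, against 8.65, 8.74 and 8.64 in those wild-type lines. The folate carrier Slc25a32 was 0.41 and 0.78 higher on its probe sets. The glutamate carrier Slc25a22 read 7.41, 7.37 and 7.39 in knockout lines 72, 75 and 116, against 7.52 in wild-type line 31, the nearest to them, and a wild-type mean of 7.84 ± 0.27 (SD, n = 3). Slc25a23, a relative of Slc25a24 with the same substrates, differed by -0.53, opposite to it.

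Nucleotide sugar carriers feed glycosylation in the Golgi and endoplasmic reticulum. All SLC35 genes are counted in this class, also those with another substrate. Of the 8 with a symbol, 4 were higher and 3 lower, leaving out the direction of Slc35a2. Slc35a2, which brings UDP-galactose to the Golgi where lactose is also made, was the sole gene of the 76 whose probe sets disagreed. Its brighter probe set read 6.60, 6.58 and 6.50 log2 units in knockout lines 72, 75 and 116, against 6.03, 6.32 and 6.15 in wild-type lines 31, 101 and 102. The dimmer one read 4.54, 4.95 and 4.13 in those knockout lines, against 5.34, 5.36 and 5.24 in those wild-type lines. The mean of both differed by -0.19, so that no direction is given for this gene.

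Slc35a5 read 5.65, 5.21 and 4.98 in knockout lines 72, 75 and 116, against 4.22, 4.82 and 4.51 in wild-type lines 31, 101 and 102. Slc35b3, which carries the sulphate donor PAPS, read 9.30, 9.14 and 9.19 in those knockout lines, against 8.53, 8.97 and 8.76 in those wild-type lines. Slc35c2 and the dim Slc35e4 were 0.49 and 0.34 higher. Lower were Slc35c1, the GDP-fucose carrier (-0.77), Slc35a4 (-0.97) and Slc35b4, a carrier of UDP-xylose and UDP-N-acetylglucosamine (-0.70 and -0.59 on its probe sets).

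Carriers of organic ions, citrate and urea had all 8 differences between -0.43 and 0.44 log2 units. Slc22a17, a receptor for lipocalin-2, read 8.17, 7.93 and 7.97 in knockout lines 72, 75 and 116, against 8.64, 8.40 and 8.26 in wild-type lines 31, 101 and 102. The carnitine importer Slc22a5 differed by -0.43. The other 6 were higher: Slc22a7 (0.44), Slc22a16 (0.22), the citrate importer Slc13a5 (0.42), the urea carrier Slc14a2 (0.24), Slco4a1 (0.24) and the dim Slco1b2 (0.27). The symbol Slc9a3r2 belongs to no carrier but to NHERF2, a scaffold protein that tethers sodium/proton exchangers. It read 9.43, 9.58 and 9.42 on its brighter probe set in knockout lines 72, 75 and 116, against 9.11, 8.68 and 8.89 in wild-type lines 31, 101 and 102, and its other probe set was 0.42 higher.

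**Figure D3:**
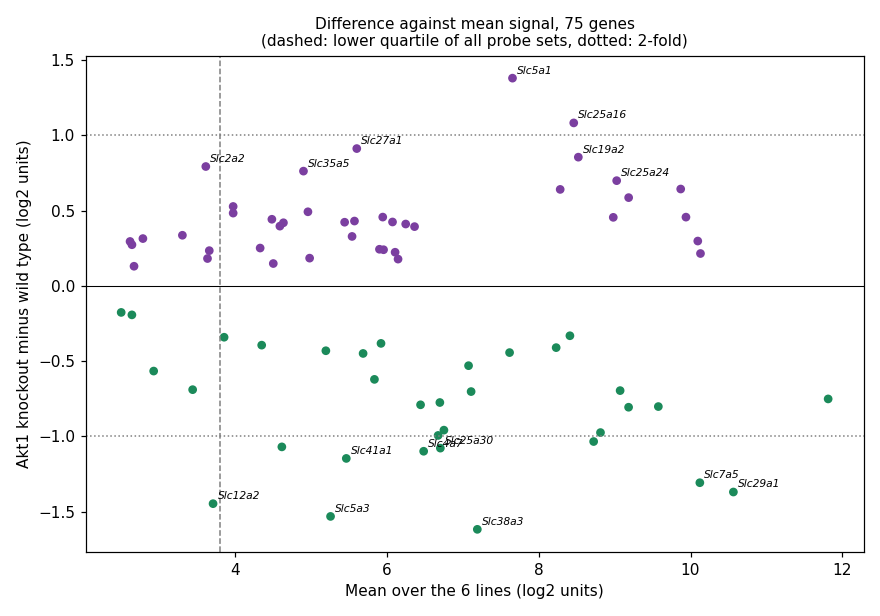
Difference between knockout and wild-type lines (log2 units, y axis) against the mean over all 6 lines (log2 units, x axis) for 75 of the 76 genes, with the dim limit of 3.80 dashed and 2-fold dotted. Of the 13 dim genes only Slc12a2 differed by at least 2-fold, and 2 genes, Slc5a1 and Slc25a16, lie above the upper dotted line.

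A second probe set with a symbol gives a partial check, since a probe set of the same gene that did not differ carries no symbol and cannot be seen. There were 12 such genes, each with 2 probe sets, and 11 of them had the same direction on both. The differences of a pair were closest for Slc25a30, with -1.08 on both, and Slc25a5, 0.045 log2 units apart, and farthest apart for Slc35a2, at 1.17. The remaining 64 genes rest on 1 probe set each.

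**Figure D4:**
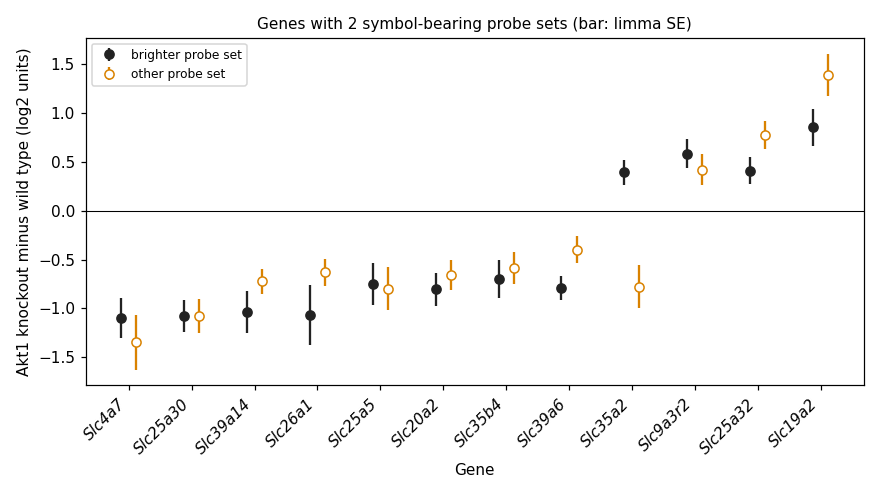
Difference between knockout and wild-type lines (log2 units, y axis) for the 12 genes with 2 symbol-bearing probe sets (x axis), with the brighter probe set filled, the other open, and limma's standard error as bars. The pairs lie on the same side of 0 for 11 genes, and on opposite sides for Slc35a2.

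The lines of a genotype were not alike for every carrier. The knockout line nearest the wild-type mean was line 75 for 29 of the 76 genes, line 72 for 25 and line 116 for 22. Line 75 was thus the nearest for 38.2% of the carriers, against 46.8% of all symbol-bearing genes. Among the 34 lower carriers line 72 was the nearest for 41.2% and line 75 for 32.4%, against 29.5% and 50.7% of all lower symbol-bearing genes. The spread among the knockout lines was under that among the wild-type lines for 48 of 76 genes (63.2%), against 48.7% of all symbol-bearing genes, with median SDs of 0.13 in the knockout and 0.16 in the wild-type lines. These shares were not tested and depend on a choice made by the p-value.

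Pumps that set up the gradients carriers use, and proteins that regulate carriers, were counted from lists. Of 11 P-type calcium and copper pumps, 3 carried a symbol and all were lower. Atp2b1, the plasma membrane calcium pump, averaged 6.77 ± 0.37 in the knockout and 8.72 ± 0.39 in the wild-type lines (SD, n = 3 each). Of 14 sodium/potassium ATPase genes, 2 carried a symbol and both were lower, Atp1a4 by a difference of -0.24. The V-type proton pump had 10 of 22, with 6 higher, among them Atp6v1e1 (1.12), and 4 lower, among them Atp6v1h (-0.92). Among 13 genes taken by an ABC family name, not all of them transporters, 5 were higher and 8 lower. They ran from Abcc1, the drug exporter MRP1 (-1.45), to Abcc9, a subunit of potassium channels (1.27). Of 16 regulators, the ubiquitin ligase Nedd4 differed by -1.22, the kinases Stk39 and Wnk1 by -0.63 and -0.23, and Slc9a3r2, counted above, was higher. Of 14 amino acid response genes, Atf4 was 0.70 higher, on a probe set with the suffix x, and Ddit3 differed by -0.74. None of the members of these lists passed (limma, adjusted p of at least 0.0587), with 31 of 34 at an unadjusted p under 0.05, against 3569 of all 4462 symbol-bearing genes and 15.4% of all probe sets. Nothing is read from this count, since the symbols were given by a p under 0.05.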

How the data were processed

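Expression was measured on 1 array for each of 6 mouse ErbB2 mammary tumour lines, grouped by the genotype in the labels. The authors deposited log2 expression values per probe set, in a workbook sheet and in a value table that agree to within 5.0e-09. For scanning, background correction and normalization, the sources used here give no method. A B score per probe set was also deposited by the authors and not used. The deposited p-value follows an equal-variance two-sample test to within 3.2e-09. Differences (knockout minus wild type) were fitted on the deposited values with limma 3.58.1 in R 4.3.3 (lmFit, eBayes, no covariate) over 45037 probe sets, with Benjamini-Hochberg adjustment, and the fit was tested on simulated data. With 3 arrays a group, the number of arrays limits the precision, and the median standard error over the 76 genes was 0.15 log2 units. A gene is represented by its symbol-bearing probe set of highest mean. Substrate classes were assigned by Slc family number, so a member can carry another substrate, such as the iodide importer Slc5a5 in the sugar class. Values in every line are given for the 8 genes with the largest difference in each direction, the member of highest mean in each substrate class, genes with opposed probe sets, and the 2 nearest a deposited p of 0.05. One of these genes is counted but not reported here. Of 76 symbols 75 are current in RefSeq and Slc6a20 matches a synonym. Promoters are RefSeq's (GRCm38.p6). Members, lists and motifs were chosen with earlier results of these data known. Alternatives were array centring, quantile normalization, a dim filter, an intensity trend, the two-sample test, the mean of probe sets, and leaving out each line.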

Additional observations from a re-analysis of the deposited data

How the results depend on the processing

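The split of 42 higher and 34 lower carrier genes was the same under array centring, quantile normalization, an intensity trend, the two-sample test and without any single line. This is no sign of stability, since the members' groups do not overlap. It was 34 and 29 with dim probe sets left out, where 13 genes drop out, and 41 and 35 after averaging the probe sets of each gene, which gave Slc35a2 a difference of -0.19 in place of 0.39. No carrier probe set passed under these settings, apart from those that leave out a line, where 0 to 2 passed. The 2 passed without knockout line 75: Slc7a5 (-1.71, limma adjusted p = 0.0476) and Slc4a7 (-1.63 on its dimmer probe set, adjusted p = 0.0472). Over all probe sets, 48 passed, 3 with the two-sample test and 1 to 327 when a line was left out, the 327 without knockout line 75; the cause was not tested. Of 302 recomputed differences of the 27 genes chosen for values by line, 300 moved by less than the larger group SD. Nothing is read from this count, since most settings could not give another outcome. The dim filter, intensity trend and two-sample test leave a difference unchanged. Leaving out 1 of 3 lines cannot move it by as much as that SD. Averaging its probe sets moved Slc19a2 to 1.12. No paired analysis was possible because the genotypes share no line number.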

Other observations

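Another 14 genes, on 17 probe sets, were deposited under older names and are called Slc in the GRCm38.p6 annotation, so the symbol rule did not take them; Slc2a4rg-ps among them is a pseudogene and no carrier. Of these, 8 were higher and 6 lower in the knockout lines, each at its brightest symbol-bearing probe set, Slc25a44 with its opposed probe sets included. Slc38a11, Slc9a9 and Slc9b1 among the higher genes and Slc46a2 among the lower ones were dim. The mitochondrial glycine carrier Slc25a38, deposited as BC010801, averaged 7.20 ± 0.28 in the knockout and 7.94 ± 0.03 in the wild-type lines (SD, n = 3 each). Slc38a10, deposited as 1810073N04Rik and related to Slc38a3, averaged 11.03 ± 0.28 in the knockout and 11.76 ± 0.20 in the wild-type lines, a difference of -0.73. The riboflavin carrier Slc52a2, deposited as Gpr172b, differed by -0.31. Slc25a46, deposited as 1200007B05Rik, an outer mitochondrial membrane protein, was 0.47 higher, and 0.18 higher on its other probe set, which was dim. Slc25a53 was 0.66 higher. The probe sets of Slc25a44, deposited as B430110G05Rik, disagreed, with differences of -0.85 and 0.56.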
